A study of Homo sapiens with 6 samples.

Results

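Of the 28181 genes listed in every library, 10 genes of transforming growth factor beta (TGF-beta) signalling were taken by symbol: the ligands TGFB1, TGFB2 and TGFB3, the receptors TGFBR1, TGFBR2 and TGFBR3, the latent binding proteins LTBP1 and LTBP2, the activin subunit gene INHBA and the inhibitor SMAD7. All 10 were found, and all 10 passed the filter on low values that 23040 genes passed. They were compared between 3 libraries of UE7T-9 SHC4 and 3 libraries of UE7T-9 Cont. UE7T-9 is an established line of human mesenchymal stem cells, and the cells were maintained in DMEM with fetal bovine serum. UE7T-9 SHC4 cells carried the coding region of SHC4, an adaptor protein that couples receptor kinases to signalling, in a lentiviral vector with a CMV promoter and puromycin selection. UE7T-9 Cont cells carried GFP in the same vector according to the methods, whereas the labels call them nontarget and wild type. The sample titles call each library a bio rep (biological replicate), without saying what was repeated. The series text speaks of clones, so a group may derive from few infected cells, and nothing states that the replicates were separate infections. The p-values therefore measure the spread between these libraries, which may be technical.

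TGF-beta ligands are secreted in a latent form, in which the mature dimer stays bound to its own propeptide. Latent TGF-beta binding proteins tether this complex to fibrillin and fibronectin in the matrix, where integrins or thrombospondin release the ligand. The free ligand binds TGFBR2, which phosphorylates TGFBR1, and SMAD2 and SMAD3 then enter the nucleus with SMAD4. TGFBR3 (betaglycan) is a co-receptor that presents TGFB2 in particular, since TGFB2 alone binds TGFBR2 weakly. In bone marrow stroma this pathway is known for matrix production and for holding progenitors in an undifferentiated or bone-forming state.

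The values are normalized counts, that is, reads per gene divided by a size factor for the library. Whole reads could be recovered from them, and the totals ranged from 18144993 to 27721397 reads per library. SHC4 itself had normalized counts of 56.5, 157 and 130 in the controls and 134870, 119166 and 155006 in SHC4 cells, so all 6 libraries matched their labels. Cont replicate 1 stood apart from the other controls. Its log2 values correlated at 0.975 with SHC4 replicate 1, against 0.967 and 0.962 with the other controls (Pearson's r across genes, which are not independent). Its correlations with SHC4 replicates 2 and 3 were 0.969 and 0.968, also above those with the other controls. All 5 mesenchymal markers were present in every library, with THY1 between 2286 and 9570, NT5E between 12068 and 22364 and ENG between 4817 and 8048. THY1 was 7742 in Cont replicate 1 and 2940 and 2286 in the other controls. The summed normalized count of 6 hematopoietic markers was 228 to 418 in the controls and 279 to 349 in SHC4 cells. Among them PTPRC, the pan-leukocyte marker, stayed between 0 and 6.82. HLA-DRA had 72.8 to 262 over the 6 libraries, CD14 had 52.7 to 88.3 and CD34 had 39.6 to 52.7. ITGAM was at most 42.5 and CD79A at most 10.7. The 4 endothelial markers summed to 48.2 to 75.1 in the controls and 49.2 to 95.7 in SHC4 cells. CDH5 and TIE1 had at most 1.95 in any library, whereas VWF had 34.4 to 65.3. PECAM1 had 7.80, 11.8 and 12.8 in the controls and 9.67, 36.6 and 38.4 in SHC4 cells. Its groups overlapped (limma adjusted p = 0.407). The 2 epithelial markers summed to 14.8 to 17.7 in the controls and 4.99 to 18.5 in SHC4 cells. EPCAM was at most 4.92 and CDH1 at most 17.6. RNA was taken from bulk cultures, so fewer cells that express a gene and less RNA per cell cannot be told apart.

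TGFB2 had the largest log2 fold change of the 10 members, so it is shown beside the other ligand genes, which had small ones. The 250 bases before the RefSeq transcription starts of the 3 ligand genes are given (GRCh38.p14, 5′ to 3′ on the strand of the gene). Capitals mark the TATA box letters TATAAA, the E-box CACGTG and the GC box GGGCGG, each searched on both strands. The motif matches do not overlap each other.
TGFB2, chr1:218345086-218345335, plus strand: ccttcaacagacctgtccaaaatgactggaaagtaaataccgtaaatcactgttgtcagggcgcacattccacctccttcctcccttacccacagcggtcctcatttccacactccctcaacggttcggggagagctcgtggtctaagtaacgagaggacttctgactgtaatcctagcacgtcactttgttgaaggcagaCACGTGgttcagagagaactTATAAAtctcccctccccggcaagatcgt
TGFB1, chr19:41353923-41354172, minus strand: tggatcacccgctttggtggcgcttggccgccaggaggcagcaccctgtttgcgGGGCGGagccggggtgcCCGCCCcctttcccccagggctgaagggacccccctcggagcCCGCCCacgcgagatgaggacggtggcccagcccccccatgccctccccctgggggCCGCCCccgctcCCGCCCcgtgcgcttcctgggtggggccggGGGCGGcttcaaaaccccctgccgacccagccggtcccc
TGFB3, first listed start, chr14:75983012-75983261, minus strand: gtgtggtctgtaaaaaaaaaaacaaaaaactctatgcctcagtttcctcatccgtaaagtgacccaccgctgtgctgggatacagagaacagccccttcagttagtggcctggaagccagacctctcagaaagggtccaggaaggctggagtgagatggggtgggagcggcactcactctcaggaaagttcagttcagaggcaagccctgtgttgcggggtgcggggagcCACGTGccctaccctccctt
TGFB3, second listed start, chr14:75981996-75982245, minus strand: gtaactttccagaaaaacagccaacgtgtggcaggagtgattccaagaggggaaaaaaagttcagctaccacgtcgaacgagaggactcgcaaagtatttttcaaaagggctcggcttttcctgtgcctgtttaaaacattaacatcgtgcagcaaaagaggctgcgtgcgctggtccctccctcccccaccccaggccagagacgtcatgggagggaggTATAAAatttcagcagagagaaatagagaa
TGFB2 had 1 TATAAA, beginning 29 bases before its start, and 1 CACGTG at 49 bases, and no GC box. TGFB1 had 6 GC boxes and neither of the other motifs, and its window was 76.8% G and C, against 50.4% in TGFB2. TGFB3 had a CACGTG 20 bases before its first start and a TATAAA 30 bases before its second. Among 35116 promoter windows of this length, 10.7% held TATAAA, 6.34% CACGTG and 42.6% GGGCGG. These matches describe the letters in the windows and say nothing of which factor binds there.

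The members spanned a wide range of levels when set per length. Divided by kilobases of annotated exon, the mean level in the controls was highest for LTBP1 (1507 ± 176 normalized counts per kilobase; SD, n = 3), followed by TGFB1 (1113 ± 385), TGFBR2 (1014 ± 166) and INHBA (952 ± 294). Neighbours in the order among these 4 genes overlapped in their libraries, so their order is not resolved. LTBP2 (353 ± 234) and TGFBR1 (290 ± 26.3) came next, below all INHBA libraries. The lowest LTBP2 library (180 per kilobase) lay below the highest libraries of TGFBR3 (182) and SMAD7 (193). TGFBR3 (165 ± 21.9) and SMAD7 (160 ± 40.1) overlapped, and SMAD7 also overlapped TGFB2 through 1 library. TGFB2 (84.5 ± 28.8) lay above TGFB3 (36.9 ± 11.8) without overlap in the controls. In UE7T-9 SHC4 the order was the same apart from 2 exchanges between neighbours, INHBA with TGFBR2 and SMAD7 with TGFBR3. There TGFB2 (41.7 ± 13.1 per kilobase; SD, n = 3) and TGFB3 (33.5 ± 9.06) overlapped.

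**Figure D1:**
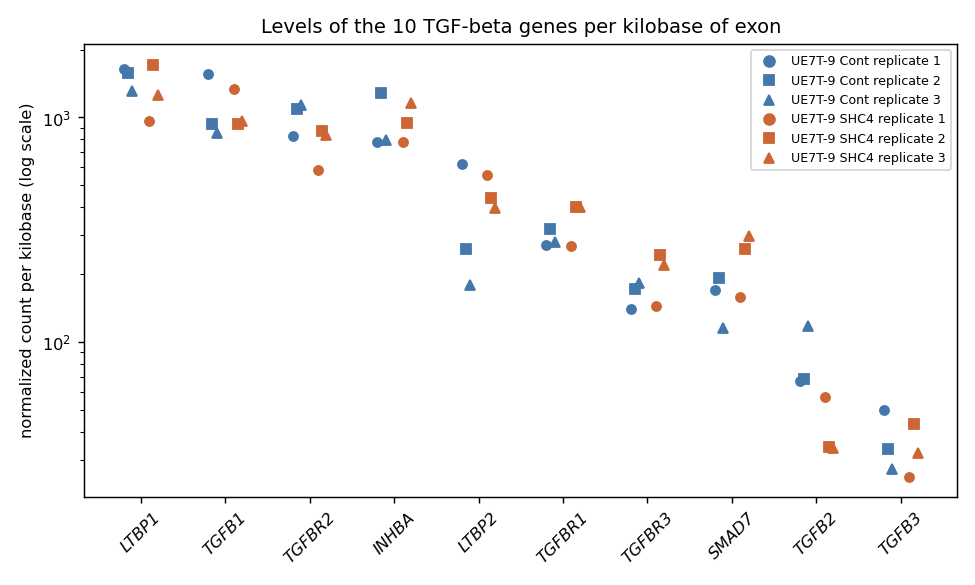
Level of each of the 10 genes, in normalized counts per kilobase of annotated exon on a log axis, with 1 point per library, UE7T-9 Cont in blue and UE7T-9 SHC4 in orange. LTBP1, TGFB1, TGFBR2 and INHBA lie highest, and the TGFB2 points of UE7T-9 SHC4, apart from replicate 1, drop to the level of TGFB3.

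TGFB2, a ligand prominent in development and in mesenchymal cells, was the 1 member whose libraries separated by group. Its normalized count was 345, 354 and 607 in the controls and 293, 176 and 175 in SHC4 cells. All 3 SHC4 libraries lay below all 3 controls, although the gap between the nearest pair was small beside the distance to Cont replicate 3. The means were 435 ± 149 and 215 ± 67.6 (SD, n = 3 each), 2.03-fold lower in SHC4 cells. The limma log2 fold change, which is on the scale of log2(normalized count + 1) throughout, was -1.01 (standard error 0.27, limma adjusted p = 0.184, Benjamini-Hochberg method over all genes). DESeq2 on the recovered reads called TGFB2 lower (log2 fold change -1.02, standard error 0.31, DESeq2 adjusted p = 0.0302), and edgeR did not (edgeR adjusted p = 0.18). Which libraries were included decided the call. With DESeq2 the adjusted p was 0.00488 without Cont replicate 1 and 0.00179 without SHC4 replicate 1, and it was 0.0752 to 0.345 without any 1 of the other 4. With limma it was 0.0493 without Cont replicate 1 and 0.106 to 0.588 otherwise. The log2 fold change was negative in each of these fits, from -1.25 to -0.75 with limma.

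TGFB1, the ligand with the most reads, did not separate. Its normalized count was 5036, 3023 and 2754 in the controls and 4335, 3033 and 3136 in SHC4 cells, with 1 high library in each group, replicate 1. The means were 3604 ± 1247 and 3501 ± 723 (SD, n = 3 each). The log2 fold change was -0.01 with a 95% interval from -0.54 to 0.52 (limma adjusted p = 0.991). The 95% intervals here and below are per gene, without adjustment for the number of genes tested. TGFB3 was the least abundant ligand, with 246, 165 and 134 in the controls and 124, 212 and 158 in SHC4 cells. Its groups overlapped throughout their range, and the log2 fold change was -0.13 (95% interval -0.74 to 0.49, limma adjusted p = 0.871).

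The share of each ligand within a library does not depend on the scaling between libraries. Per kilobase, TGFB1 made up 93.0%, 90.1% and 85.4% of the 3 ligand transcripts in the controls and 94.2%, 92.4% and 93.6% in SHC4 cells. TGFB2 made up 4.006%, 6.64% and 11.8% in the controls and 3.999%, 3.38% and 3.28% in SHC4 cells. The groups just failed to overlap for TGFB2, since Cont replicate 1 and SHC4 replicate 1 were all but equal. The mean share of TGFB2 was 7.49 ± 3.98% in the controls and 3.55 ± 0.391% in SHC4 cells (exact permutation test, two-sided p = 0.1, n = 3 each, the smallest p that 3 libraries against 3 allow). Without division by length the TGFB2 shares overlapped between groups (exact permutation test, p = 0.2, n = 3 each). TGFB3 held 2.73% to 3.24% in the controls and 1.78% to 4.26% in SHC4 cells. Per kilobase, the exact permutation test gave p = 0.2 for TGFB1 and p = 0.9 for TGFB3 (n = 3 each). The share of TGFB2 uses the same TGFB2 counts as above, so it is not a separate result.

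INHBA encodes the beta A subunit, of which 2 form activin A, a ligand that signals through SMAD2 and SMAD3 by its own receptors. Its normalized count was 6432, 10720 and 6566 in the controls and 6441, 7818 and 9659 in SHC4 cells. The groups shared the same range, with means of 7906 ± 2438 and 7973 ± 1615 (SD, n = 3 each) and a log2 fold change of 0.03 (95% interval -0.49 to 0.55, limma adjusted p = 0.962).

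**Figure D2:**
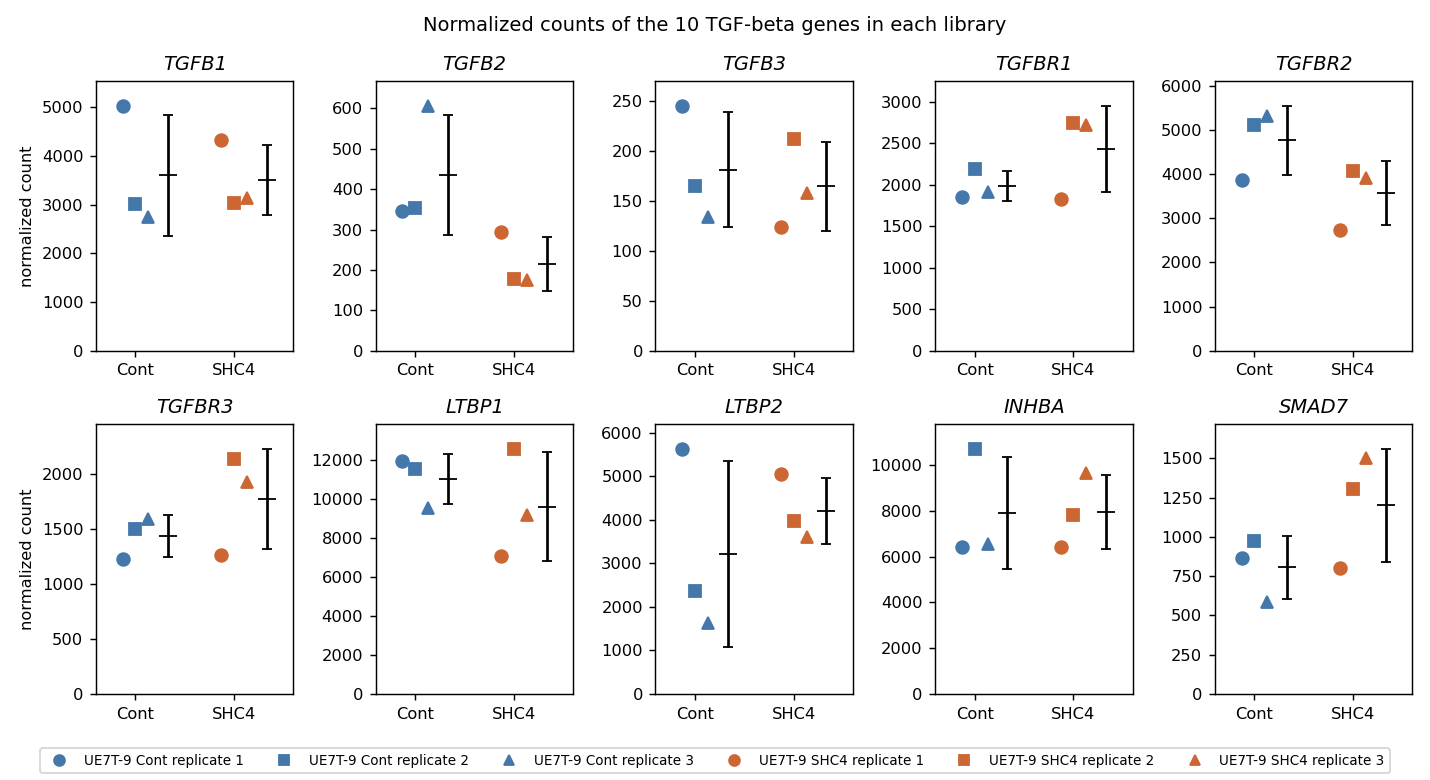
Normalized count of each of the 10 genes in every library, with marker shape for the replicate number and the group mean ± SD (n = 3) as the black bar. TGFB2 is the panel where all UE7T-9 SHC4 points lie below all UE7T-9 Cont points, and in LTBP2 the UE7T-9 Cont replicate 1 point (5633) lies above all others.

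The type II receptor TGFBR2, which binds the ligand first, had normalized counts of 3874, 5115 and 5320 in the controls and 2739, 4080 and 3912 in SHC4 cells. Each group had its lowest value in replicate 1, and the groups overlapped only through Cont replicate 1. The means were 4770 ± 783 and 3577 ± 731 (SD, n = 3 each), 1.33-fold lower in SHC4 cells, giving a log2 fold change of -0.42 (95% interval -0.85 to 0.01, limma adjusted p = 0.352). DESeq2 gave an adjusted p of 0.304. The type I receptor TGFBR1, the kinase that phosphorylates SMAD2 and SMAD3, had 1850, 2190 and 1915 in the controls and 1826, 2742 and 2724 in SHC4 cells. Here 2 of the 3 SHC4 libraries were above all controls and the third was below them. The log2 fold change was 0.27 (95% interval -0.12 to 0.66, limma adjusted p = 0.51). The co-receptor TGFBR3 had 1223, 1501 and 1588 in the controls and 1265, 2135 and 1920 in SHC4 cells. A pair of SHC4 libraries was above all controls, and SHC4 replicate 1 lay among them. Its log2 fold change was 0.28 (95% interval -0.17 to 0.73, limma adjusted p = 0.564).

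Among the latent binders, LTBP1 had the highest mean count of the 10 members, overlapping INHBA, and its groups overlapped. It had 12000, 11560 and 9577 in the controls and 7078, 12604 and 9202 in SHC4 cells, so that SHC4 cells held both the lowest and the highest library. The log2 fold change was -0.23 (95% interval -0.72 to 0.26, limma adjusted p = 0.668). LTBP2, which binds fibrillin but is known not to bind the latent ligand covalently as LTBP1 does, had 5633, 2371 and 1634 in the controls and 5064, 3964 and 3596 in SHC4 cells. Cont replicate 1 exceeded every SHC4 library, whereas the other controls lay below all of them. The means were 3213 ± 2128 and 4208 ± 764 (SD, n = 3 each), giving a log2 fold change of 0.57 (standard error 0.38, limma adjusted p = 0.522). Without Cont replicate 1 the log2 fold change was 1.08 (limma adjusted p = 0.0157, and 6.7e-05 from DESeq2). Without any other library the limma log2 fold change was at least 0.19 and the adjusted p was at least 0.629.

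SMAD7, a transcriptional target of the pathway whose product blocks TGFBR1 and recruits ubiquitin ligases to it, had 863, 974 and 582 in the controls and 801, 1302 and 1500 in SHC4 cells. A pair of SHC4 libraries lay above all controls and SHC4 replicate 1 lay among them. The means were 806 ± 202 and 1201 ± 360 (SD, n = 3 each), 1.49-fold higher in SHC4 cells, giving a log2 fold change of 0.56 (95% interval -0.02 to 1.14, limma adjusted p = 0.362). DESeq2 gave an adjusted p of 0.266. Without SHC4 replicate 1 the DESeq2 adjusted p for SMAD7 was 0.0382 (log2 fold change 0.80). Without any 1 of the other libraries the DESeq2 adjusted p was 0.161 to 0.770.

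A gene was called when its log2 fold change passed 1 in size with adjusted p under 0.05. Over the 10 members, limma called 0 higher and 0 lower. It called 0.0608% of all genes tested, 0.0521% higher and 0.00868% lower. At an unadjusted p under 0.05 in limma, 1 member was lower (TGFB2), against 14.4% of all genes, 7.47% higher and 6.96% lower. DESeq2 called 1 member lower, where it called 2.2% of its 16153 genes, 1.05% higher and 1.15% lower. edgeR called 0 members, where it called 0.0631% of its genes, 0.0568% higher and 0.00631% lower. The libraries of the groups did not overlap for 1 of 10 members, which was lower, against 19.3% of all genes, 9.13% higher and 10.2% lower. The median log2 fold change of the members was 0.01, with 5 above 0 and 5 below (TGFB1 turns above 0 under TMM scaling and INHBA below 0 under library size scaling), and that of all genes was -0.004. Without Cont replicate 1, limma called TGFB2 lower and LTBP2 higher, where it called 3.06% of all genes, 1.47% lower and 1.59% higher. Replicate 1 of both groups was the highest of its group for 2 members (TGFB1 and LTBP2) and the lowest for 4 (TGFBR1, TGFBR2, TGFBR3 and INHBA), a shared end in 6 of 10 members against 38.3% of all genes tested.

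**Figure D3:**
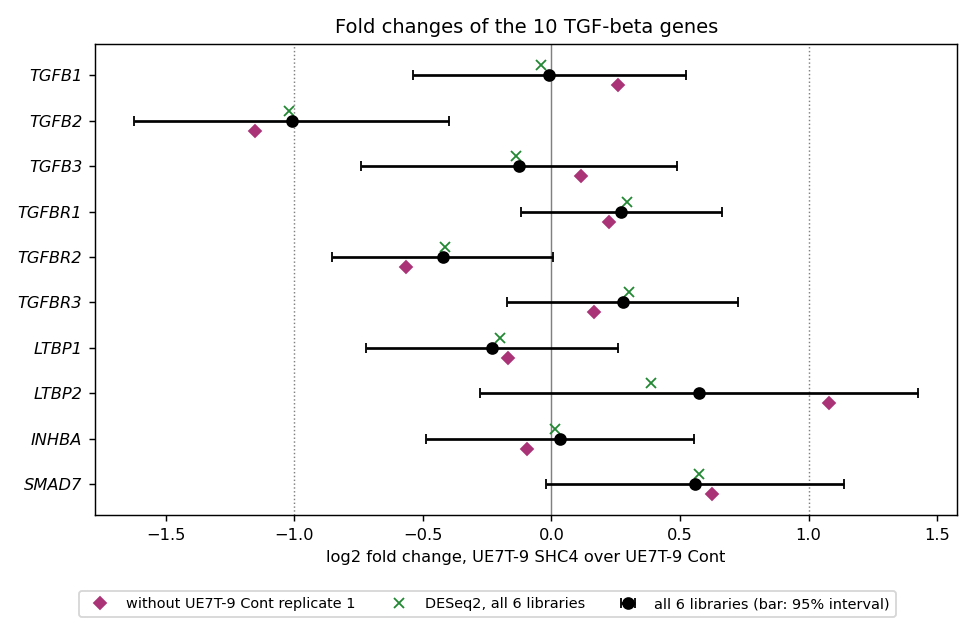
Log2 fold change of each member, UE7T-9 SHC4 over UE7T-9 Cont, from limma with its 95% interval (black), from DESeq2 (green crosses) and from limma without UE7T-9 Cont replicate 1 (purple diamonds); dotted lines mark -1 and 1. The intervals are per gene and are not adjusted for the number of genes tested. Only the TGFB2 interval excludes 0, although its limma adjusted p was 0.184. LTBP2 moves most when the control library is left out, from 0.57 to 1.08.

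The positions of the members are those of GENCODE 29 on GRCh38, matched by Ensembl identifier. The ligand genes are TGFB1 (ENSG00000105329) at chr19:41301587-41353911 (minus), TGFB2 (ENSG00000092969) at chr1:218346235-218444619 (plus) and TGFB3 (ENSG00000119699) at chr14:75958099-75982991 (minus). The RefSeq start used for the TGFB2 sequence lies upstream of this GENCODE start. That window ends at 218345335, so it does not adjoin the gene model behind the exon length. The receptor genes are TGFBR1 (ENSG00000106799) at chr9:99104038-99154192 (plus), TGFBR2 (ENSG00000163513) at chr3:30606502-30694142 (plus) and TGFBR3 (ENSG00000069702) at chr1:91680343-91906335 (minus). The others are LTBP1 (ENSG00000049323) at chr2:32946972-33399509 (plus), LTBP2 (ENSG00000119681) at chr14:74498170-74612378 (minus), INHBA (ENSG00000122641) at chr7:41667168-41705834 (minus) and SMAD7 (ENSG00000101665) at chr18:48919853-48952052 (minus). No other gene of the files overlapped TGFB2, TGFBR2, TGFBR3, LTBP2 or SMAD7. TGFB1 overlaps the opposite-strand genes CCDC97, TMEM91 and HNRNPUL1, TGFB3 overlaps IFT43, INHBA overlaps INHBA-AS1, LTBP1 overlaps an antisense gene (ENSG00000285577) and TGFBR1 a ribosomal pseudogene (RNA5SP290). The strand setting of the counting is not stated, so reads in those overlaps are uncertain. HNRNPUL1, the most abundant of these, had a log2 fold change of 0.02 (limma adjusted p = 0.981).

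The genes around the members were described by 5 lists. No gene of any list was called by limma or edgeR. Of 16 tested genes for latency and activation of the ligand, 5 had groups that did not overlap, 3 higher and 2 lower, against 19.3% of all genes (9.13% higher, 10.2% lower). At an unadjusted p below 0.05 in limma, 5 were higher and 1 lower, against 7.47% and 6.96% of all genes, and the median log2 fold change was 0.27. DESeq2 gave 4 of them an adjusted p below 0.05, where 4.14% of all its genes had one, 2.06% higher and 2.08% lower: MFAP5, LTBP3 and THBS1 were higher and ITGB3 was lower. MFAP5, a microfibril glycoprotein found with fibrillin, had 1291, 620 and 405 in the controls and 2478, 2705 and 2771 in SHC4 cells. Every SHC4 library was above every control. Its log2 fold change was 1.94 (standard error 0.34, limma adjusted p = 0.0932, DESeq2 adjusted p = 9.55e-05), and DESeq2 called it without any 1 library (adjusted p up to 0.00987). LTBP3, a latent binder that carries TGF-beta in bone and cartilage, had 3646, 2725 and 2131 in the controls and 4327, 5756 and 4692 in SHC4 cells. It was the latent binder whose groups did not overlap, giving a log2 fold change of 0.82 (standard error 0.20, limma adjusted p = 0.166, DESeq2 adjusted p = 0.0195). THBS1, thrombospondin 1, an activator of latent TGF-beta, had 84988, 70551 and 44876 in the controls and 106680, 123577 and 128700 in SHC4 cells (log2 fold change 0.89, limma adjusted p = 0.274, DESeq2 adjusted p = 0.0178). ITGB3, an integrin subunit that pairs with ITGAV, had 401, 485 and 460 against 265, 281 and 218, with no overlap and a log2 fold change of -0.82 (standard error 0.16, limma adjusted p = 0.111, DESeq2 adjusted p = 0.00216). Apart from MFAP5, these DESeq2 results depended on single libraries. For LTBP3 the DESeq2 adjusted p was 0.129 to 0.318 without Cont replicate 2, Cont replicate 3, SHC4 replicate 2 or SHC4 replicate 3. For THBS1 the DESeq2 adjusted p was 0.101 without Cont replicate 2, 0.223 without SHC4 replicate 2 and 0.202 without SHC4 replicate 3. For ITGB3 the DESeq2 adjusted p was 0.0779 without Cont replicate 2 and 0.0775 without SHC4 replicate 3. LRRC32 (GARP), which holds latent TGF-beta on the cell surface, overlapped between groups, with means of 1380 ± 382 and 2079 ± 272 (SD, n = 3 each; limma adjusted p = 0.223). The other tested integrin genes of the list were outside the rule for named genes and were taken after their values were seen. Their log2 fold changes were 0.89 (ITGB8), 0.27 (ITGAV), 0.18 (ITGB5) and 0.17 (ITGB1), all with overlapping groups. For ITGB8 the limma adjusted p was 0.276. The 17th gene of the list, ITGB6, had at most 3.90 in any library and was not tested.

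Of 10 other receptors and co-receptors, 3 had groups that did not overlap, against 19.3% of all genes, and none was called by limma, edgeR or DESeq2. At an unadjusted p below 0.05 in limma there was 1 (TGFBRAP1), against 14.4% of all genes, and the median log2 fold change of the list was 0.17. TGFBRAP1, a protein that associates with the receptors and with SMAD4, had 1242, 1601 and 1701 in the controls and 1153, 1139 and 1195 in SHC4 cells (log2 fold change -0.37, limma adjusted p = 0.286). The activin type I receptor ACVR1B was 520 ± 49.1 and 596 ± 4.58 (SD, n = 3 each; log2 fold change 0.20, limma adjusted p = 0.505), and the type II receptor ACVR2B was 88.5 ± 22.1 and 108 ± 3.11. ACVRL1, the type I receptor of endothelial cells, had few reads, 14.4 ± 6.48 and 27.1 ± 10.8. ENG, endoglin, a co-receptor and a mesenchymal marker, was 6246 ± 1647 in the controls and 6769 ± 321 in SHC4 cells, giving a log2 fold change of 0.15 (limma adjusted p = 0.767).

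Of 17 tested SMADs and SMAD regulators, 6 had groups that did not overlap, 4 higher and 2 lower, against 19.3% of all genes, and none was called by limma, edgeR or DESeq2. At an unadjusted p below 0.05 in limma, 4 were higher and 2 lower, against 14.4% of all genes in either direction, with a median log2 fold change of 0.19. SMAD6, the second inhibitory SMAD, had 592, 387 and 245 in the controls and 704, 719 and 693 in SHC4 cells. The SHC4 libraries were close together and above all controls, giving a log2 fold change of 0.88 (standard error 0.27, limma adjusted p = 0.207, DESeq2 adjusted p = 0.103). SMAD4, the partner of all receptor-activated SMADs, was 1034 ± 223 and 1440 ± 53.6 (SD, n = 3 each), giving a log2 fold change of 0.50 (limma adjusted p = 0.226). SMAD2 was 1401 ± 271 and 1820 ± 109, without overlap (limma adjusted p = 0.304), and SMAD3 was 4371 ± 1196 and 5229 ± 1062, with overlap (limma adjusted p = 0.598). SMURF1, a ubiquitin ligase that SMAD7 brings to the receptor, was lower in all 3 SHC4 libraries, with 780, 868 and 978 against 767, 627 and 589 (log2 fold change -0.41, limma adjusted p = 0.269). LDLRAD4 had reads in 1 library alone and was not tested.

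The activin arm, with 7 genes, had 3 genes whose groups did not overlap, against 19.3% of all genes, and its median log2 fold change was 0.65. In limma, 3 were higher and 1 lower at an unadjusted p below 0.05, against 14.4% of all genes in either direction. FST, follistatin, which binds and neutralizes activins, had 8331, 6322 and 3411 in the controls and 17092, 8613 and 10908 in SHC4 cells. The nearest libraries of the groups almost touched, and the log2 fold change was 1.05 (standard error 0.34, limma adjusted p = 0.224, DESeq2 adjusted p = 0.0531). FSTL3, a second activin-binding protein, was 513 ± 196 and 778 ± 162 (SD, n = 3 each), with overlap. INHBB, the beta B subunit gene, had 45.8, 17.7 and 9.84 in the controls and 36.9, 95.7 and 113 in SHC4 cells (log2 fold change 1.82, limma adjusted p = 0.224, DESeq2 adjusted p = 0.0651). INHBE, the beta E subunit gene, had 39.0, 28.3 and 34.4 against 13.2, 4.16 and 14.0, and DESeq2 called it lower at an adjusted p of 0.04997 (limma adjusted p = 0.193). That call was lost without any 1 library (DESeq2 adjusted p from 0.0705 to 0.41).

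**Figure D4:**
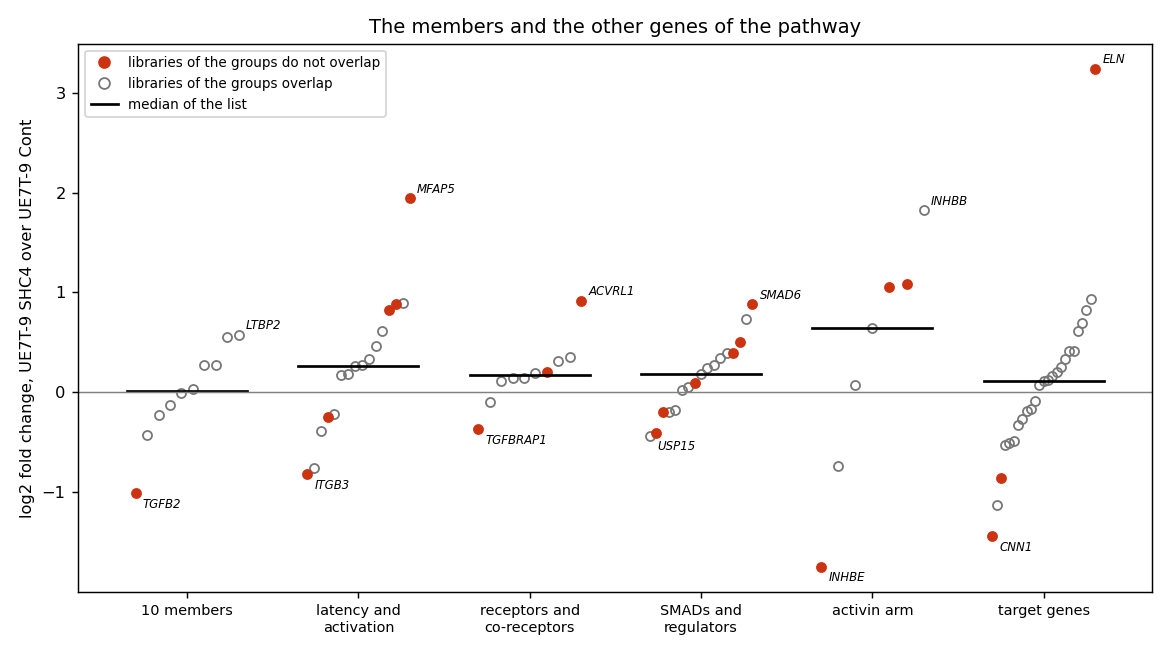
Log2 fold change (limma, UE7T-9 SHC4 over UE7T-9 Cont) of every tested gene of the 10 members and of the 5 lists, sorted within each list, with filled red points where the libraries of the groups did not overlap and a black line at the list's median. The lowest and highest gene of each list are named; TGFB2 is the filled point among the members, and ELN (3.24) is the highest target gene.

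Of 25 tested genes that TGF-beta is known to regulate, 3 had groups that did not overlap, 1 higher and 2 lower, against 19.3% of all genes. In limma, 2 were higher and 4 lower at an unadjusted p below 0.05, against 14.4% of all genes in either direction, and the median log2 fold change was 0.11. CCN2, connective tissue growth factor, had 16169, 18400 and 21931 against 17298, 11873 and 11569, with overlap through replicate 1 of each group and a log2 fold change of -0.49 (limma adjusted p = 0.336). TGFBI, a matrix protein named for its induction by TGF-beta, had 19968, 10522 and 6731 against 17481, 12824 and 14986, giving a log2 fold change of 0.42 (limma adjusted p = 0.619). The log2 fold changes of CCN2 and TGFBI differed in sign, neither was called, and that of TGFBI was -0.0172 with DESeq2 without Cont replicate 3.

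CNN1, calponin 1 of the contractile apparatus, was the target gene that DESeq2 called. It had 323, 173 and 336 in the controls and 134, 82.4 and 83.8 in SHC4 cells, 2.78-fold lower in the mean, with no overlap. Its log2 fold change was -1.44 (standard error 0.30, limma adjusted p = 0.122, DESeq2 adjusted p = 0.000867), and the DESeq2 adjusted p was 0.0558 without SHC4 replicate 2 and below 0.05 without any other library. TAGLN, TPM1 and ACTA2, also contractile genes of the list, were outside the rule for named genes and were taken after their values were seen. Their log2 fold changes were positive (0.83, 0.33 and 0.17) and their groups overlapped (limma adjusted p = 0.331, 0.614 and 0.784). IL11, a cytokine induced by TGF-beta in fibroblasts, had 156, 173 and 206 against 128, 65.8 and 109 (log2 fold change -0.86, limma adjusted p = 0.215). ELN, elastin, had 718, 85.9 and 45.3 in the controls and 3469, 842 and 829 in SHC4 cells. Replicate 1 was the highest library of both groups for ELN, and Cont replicate 1 lay near the lower SHC4 libraries. The log2 fold change was 3.24 (standard error 0.92, limma adjusted p = 0.195). It was 4.41 without Cont replicate 1 (limma adjusted p = 0.00388), and DESeq2 gave no adjusted p with all libraries. Without any 1 of the other libraries the limma adjusted p for ELN was 0.288 to 0.588. The DESeq2 adjusted p was 2.09e-05 without Cont replicate 1 and 0.495 to 0.658 without any 1 of the others. Cont replicate 1 had the highest value of all 6 for FN1 (994063 normalized counts) and COL1A1 (315042), which were chosen after their values were seen. COMP had a mean below the filter and was not tested.

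**Figure D5:**
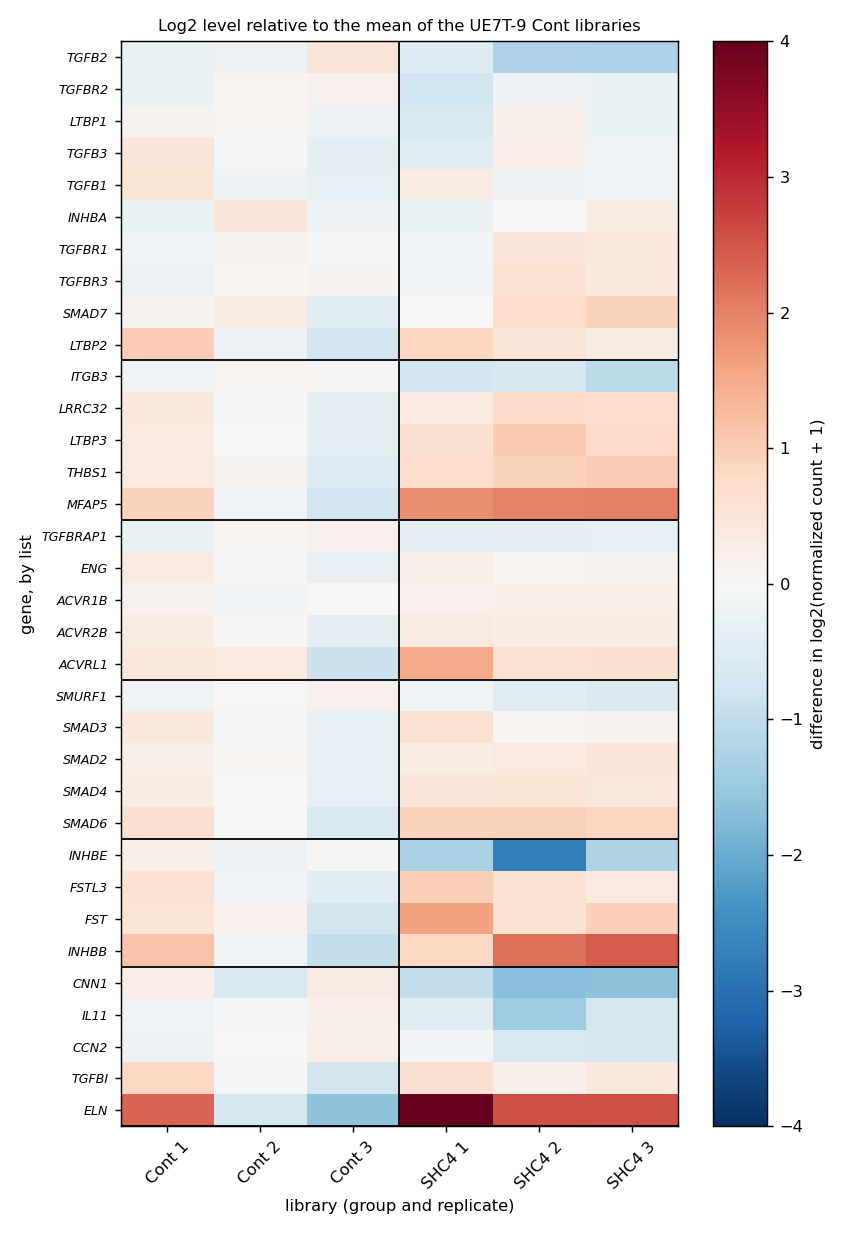
Difference of each library's log2(normalized count + 1) from the mean of the 3 UE7T-9 Cont libraries for the members and the named genes of the 5 lists, red for higher and blue for lower, with black lines between lists and groups. TGFB2, ITGB3, INHBE, CNN1 and IL11 are blue in all 3 UE7T-9 SHC4 libraries, MFAP5 and ELN are red in all 3, and the Cont 1 column differs from Cont 2 and Cont 3 for LTBP2, INHBB and ELN.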

How the data were processed

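The 6 RNA libraries (3 of each group) were sequenced on an Illumina NovaSeq system. The authors deposited, for each library, a signal: reads per gene over the size factor of that library (a normalized count). Per the labels' processing notes, HISAT2 2.0.5, featureCounts 1.5.0-p3 and DESeq2 were used; genome build, annotation and strand setting are not given in the sources used here. All values (100%, tolerance 0.01 reads) were whole multiples of 1 step per library, so reads were recovered.

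The test was limma 3.58.1 (eBayes with trend, R 4.3.3) on log2(value + 1) for 23040 genes with a mean of at least 1. A call needed a log2 fold change beyond 1 with a Benjamini-Hochberg adjusted p under 0.05. DESeq2 1.42.0 and edgeR 4.0.16 (quasi-likelihood) on recovered reads were alternatives, with other scalings, filters, pseudocounts, a replicate block and leaving out each library. The fits across genes were tested on simulated data with 200 changed genes, at an adjusted p under 0.05. At a simulated log2 fold change of 1 in size, limma recovered 59% of them, DESeq2 76% and edgeR 57.5%. The unchanged genes called there were 18 with limma, 45 with DESeq2 and 12 with edgeR. At a size of 2 the recovered shares were 98%, 97.5% and 98%, with 13, 43 and 14 unchanged genes called. The changed genes were drawn from those above a minimum mean of reads, and noise was drawn independently for each gene and library. The simulation therefore did not cover changed genes with few reads. Nor did it cover a library that stands apart over many genes, as Cont replicate 1 did. Symbols were found for 100% of identifiers; exon lengths are GENCODE 29 unions and promoters RefSeq (all 10 members matched). KRT5 was not analysed here, and 1 gene named by the rule below is not reported here. Named genes were SHC4, all members, CCN2, TGFBI, ENG and SMAD3, up to 4 genes with the smallest unadjusted p of each list, and any list gene with an adjusted p below 0.05 in limma or DESeq2. The members and lists were chosen with earlier results of these data known. A floor of 3 reads is a normalized count of 2.50 to 3.53. No pair of libraries was a duplicate (mean chi-square per gene at least 13.1).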

Additional observations from a re-analysis of the deposited data

How the results depend on the processing

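With all 6 libraries, the limma counts over all genes (12 higher, 2 lower) became 170 and 185 with DESeq2, 333 and 336 with DESeq2 and no fold threshold, 22 and 6 under library size scaling, 20 and 4 under TMM scaling, and 31 and 9 with no filter. The lower count was 1 with edgeR and 1 with pseudocount 0.1. With the replicate block limma called 25 higher and 14 lower, 0 members and 1 list gene higher (ELN). Deviations of same-numbered libraries correlated at 0.148, 0.0130 and -0.00696, and those of differently numbered libraries at -0.108 to 0.0992. The replicate 1 pair was the highest of all pairs. The other same-numbered pairs lay within the range of differently numbered ones, so the numbers were not taken to pair the libraries. Leaving out a library gave 1 to 367 genes higher and 0 to 339 lower with limma, and 50 to 475 higher and 59 to 417 lower with DESeq2, in each case most without UE7T-9 Cont replicate 1. Over both tools these fits called 0 to 1 members higher, 0 to 1 members lower, 0 to 12 list genes higher and 0 to 3 lower. The lists held 16, 10, 17, 7 and 25 tested genes. The 12 came from DESeq2 without UE7T-9 Cont replicate 1, which called 475 of 16015 genes higher and 417 lower. The 3 came from DESeq2 without UE7T-9 SHC4 replicate 1, which called 194 of 16021 genes lower. With all libraries DESeq2 called 1 member lower (also with no fold threshold), and of the lists 1 gene higher and 2 lower, or 3 and 3 with no fold threshold. The DESeq2 fits without its fold threshold and without single libraries were chosen after seeing the data. Library size scaling shifted the median of all genes to -0.10.

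Among the genes named by the rule, directions turned for 5. TGFB1 was 0.0027 under TMM scaling and INHBA -0.0687 under library size scaling. With single libraries left out, over limma and DESeq2, TGFB1 ranged from -0.2258 to 0.2799, TGFB3 from -0.3615 to 0.1474, INHBA from -0.1460 to 0.2928, ENG from -0.0434 to 0.3467 and TGFBI from -0.0172 to 0.8316. The difference in TGFB2 share stayed negative, -1.77 to -5.69 percentage points with a library left out. The cause of these shifts was not tested.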
